A study of Mus musculus with 123 samples.

Results

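The clock output genes are transcription factors that the circadian clock drives directly and that pass its rhythm on to other genes. The genes described here are those of the listed set Dbp, Tef, Hlf, Nfil3, Bhlhe40, Bhlhe41 and Ciart. A gene was included where a probe set carried its symbol in the platform annotation, and the probe set with the highest mean was taken for each gene. That gave 6 of the 7 listed genes, out of 13053 genes in all, and Ciart, a repressor of the clock's activator, was not analysed here.

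The lungs came from a mouse model of allergic asthma, in which ovalbumin (OVA), a protein of egg white, serves as the allergen to which animals are first sensitized and then exposed. Whole lung RNA of BALB/c mice, with no engineered allele named in the labels, was measured on Affymetrix arrays with 1 array per mouse. There were 62 OVA-sensitized mice, 8 at each of 0, 2, 6, 48, 72, 96 and 168 h after challenge and 6 at 24 h. There were 61 naive mice, 8 at each of 0, 6, 24, 72 and 168 h and 7 at each of 2, 48 and 96 h. Whether the naive mice received OVA or buffer at challenge is not settled, since the design text names OVA for both arms and the naive titles name PBS. The labels used here state neither the age of the mice nor the hour of the day of challenge or sampling. Time after challenge, hour of sampling and day of sampling can therefore not be told apart, and neither can sensitization and a difference in sampling hour between the arms.

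In the mammalian clock, the activator made of BMAL1 (gene Arntl) and CLOCK or NPAS2 switches on genes with E-box elements, among them the Per, Cry and Nr1d genes, whose products feed back on it. The same activator drives Dbp, Tef and Hlf, the PAR bZIP factors, which activate genes through a DNA element called the D-box. Nfil3 (E4BP4) is a bZIP repressor of the same element with a rhythm opposite to theirs, and it is also induced by cytokines and needed for natural killer cells. Bhlhe40 and Bhlhe41 (DEC1 and DEC2) are E-box repressors of the clock, and Bhlhe40 is also induced in activated T cells, where it promotes cytokine production. The lung has a robust clock of its own, which runs in airway epithelium among other cells and is known to shape airway inflammation.

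Promoter windows are shown because the genes are grouped by the elements that clock factors read. Each covers the bases just before and after a transcript start in RefSeq (GRCm38.p6), and 5 of the 6 genes, all but Bhlhe40, had a window. A script searched both strands for the E-box CACGTG, the D-box core TTANGTAA, the ROR element TAGGTCA and the cAMP response element TGACGTCA, none of which overlapped another at the places found. Capitals mark the match, and the other letters are in lower case.
Dbp (chr7:45704997-45705296, plus strand): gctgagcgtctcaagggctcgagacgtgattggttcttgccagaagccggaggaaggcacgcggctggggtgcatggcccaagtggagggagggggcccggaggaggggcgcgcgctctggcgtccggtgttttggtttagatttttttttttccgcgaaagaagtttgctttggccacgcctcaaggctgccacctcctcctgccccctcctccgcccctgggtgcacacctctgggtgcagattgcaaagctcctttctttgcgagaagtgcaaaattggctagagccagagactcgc
Tef, second window (chr15:81811164-81811463, plus strand): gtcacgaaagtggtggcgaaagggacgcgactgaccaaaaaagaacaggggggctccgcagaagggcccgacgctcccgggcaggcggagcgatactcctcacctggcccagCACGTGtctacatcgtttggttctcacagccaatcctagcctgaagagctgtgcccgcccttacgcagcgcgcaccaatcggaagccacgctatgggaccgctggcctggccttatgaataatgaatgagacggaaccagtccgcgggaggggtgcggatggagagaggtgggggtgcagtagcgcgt
Nfil3 (chr13:52980990-52981289, minus strand): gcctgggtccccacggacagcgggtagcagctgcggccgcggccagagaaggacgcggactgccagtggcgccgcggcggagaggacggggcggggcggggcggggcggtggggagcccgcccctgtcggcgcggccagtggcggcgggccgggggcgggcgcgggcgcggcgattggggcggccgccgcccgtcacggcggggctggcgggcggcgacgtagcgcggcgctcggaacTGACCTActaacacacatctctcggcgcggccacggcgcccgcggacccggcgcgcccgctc
Bhlhe41 (chr6:145865371-145865670, minus strand): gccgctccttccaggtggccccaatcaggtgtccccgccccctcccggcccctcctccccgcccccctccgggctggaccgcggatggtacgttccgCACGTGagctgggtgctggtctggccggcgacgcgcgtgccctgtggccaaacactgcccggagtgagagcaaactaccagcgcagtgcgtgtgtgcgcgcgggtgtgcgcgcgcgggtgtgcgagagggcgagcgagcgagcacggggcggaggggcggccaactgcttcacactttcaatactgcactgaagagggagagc
The second Tef window holds an E-box whose first base lies at -138 relative to the transcript start, and the first Tef window, not printed, holds another at -127. The Bhlhe41 window has an E-box at -153. The Nfil3 window has the ROR element in reverse, read here as TGACCTA, at -12. The Hlf window, not printed, has a cAMP response element at -9. None of these letters was found in the Dbp window. Of 32851 windows of the same length, 7.15% held the E-box, 2.32% the D-box core, 2.61% the ROR element and 1.79% the cAMP response element. A match is a description of the letters in the window only.

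All values are log2 values, so a difference of 1 is a 2-fold difference of signal. The arrays' medians over genes lay between 10.03 and 10.18. The alveolar protein gene Sftpc (14.19 to 14.52), the club cell gene Scgb1a1 (14.27 to 14.69) and the endothelial gene Pecam1 (11.58 to 12.35) were high on every array. Transcripts of stratified squamous epithelium, which line tissues other than the lung's alveoli, averaged over 9 on 6 arrays and at most 6.72 on all but 1 of the others, which had 8.92. Of the arrays over 8, sensitized replicate 7 at 6 h had a skeletal muscle mean of 6.51 and the others 9.37 to 12.75. Skeletal muscle transcripts were also high on arrays low in squamous transcripts. Naive replicate 2 at 2 h had 12.83 and sensitized replicate 6 at 2 h had 8.44. Sensitized replicate 3 at 6 h had the highest skeletal muscle mean of its group, whose median was 6.57. Fits without the squamous arrays keep these mice. Sensitized replicate 3 at 6 h had an Il4 value of 6.07 against 6.11 to 6.38 in naive mice at 6 h, while the other 7 sensitized mice had 9.55 to 11.22. At 2 h, sensitized replicates 2, 6 and 7 had Il4 values of 6.23, 5.96 and 6.28, inside the naive range of 5.96 to 6.53. The arms already stood apart at 0 h in other genes. Clca1 ran from 13.91 to 14.29 in sensitized and from 4.95 to 6.97 in naive mice at 0 h. Il13 ran from 6.89 to 9.45 in sensitized and from 6.38 to 6.54 in naive mice at 0 h. Sensitized Clca1 at 2 h ran from 5.34 to 14.09. Comparisons with 0 h in sensitized mice thus do not start from a naive-like lung. RNA integrity was followed by an actin measure, the log2 value of the 3' actin control probe set minus that of the 5' set, which grows as RNA is degraded and had a group mean between 0.97 and 1.50. In whole lung, fewer cells of a type and less RNA per cell cannot be told apart. A gene is called changed here where limma's p, adjusted by the Benjamini-Hochberg method over all 13053 genes of the comparison, is below 0.05.

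Dbp, a PAR bZIP factor known for a rhythm of high amplitude, ranged widely over time in both arms. In sensitized lungs its time means spanned 2.63 (6.18-fold), against a median range of 0.37 over all genes, and 52 genes had a wider span. In naive lungs they spanned 4.25 (19.1-fold), against a median range of 0.22, and 0 of the 13053 genes had a wider span. In sensitized mice the median was 12.30, 11.75, 12.17, 10.51, 10.59, 10.48, 9.65 and 11.98 at 0, 2, 6, 24, 48, 72, 96 and 168 h. In naive mice the medians at the same times were 12.56, 11.67, 12.87, 10.35, 11.40, 10.75, 8.54 and 11.64. Both arms were thus high at 0 to 6 h and at 168 h and lowest at 96 h. RNA quality moved with part of this course: the actin measure averaged 1.41 in sensitized and 1.40 in naive mice at 0 h, between 0.97 and 1.11 in both arms from 24 to 96 h, and 1.50 in sensitized and 1.21 in naive mice at 168 h. The naive 96 h mice ran from 8.40 to 8.90, below every naive mouse at 0 h, which ran from 11.91 to 12.74. The difference of 96 h minus 0 h was -2.57 ± 0.21 in sensitized mice (SE; limma adjusted p = 1.25e-18) and -3.90 ± 0.21 in naive mice (adjusted p = 5.84e-31).

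**Figure D1:**
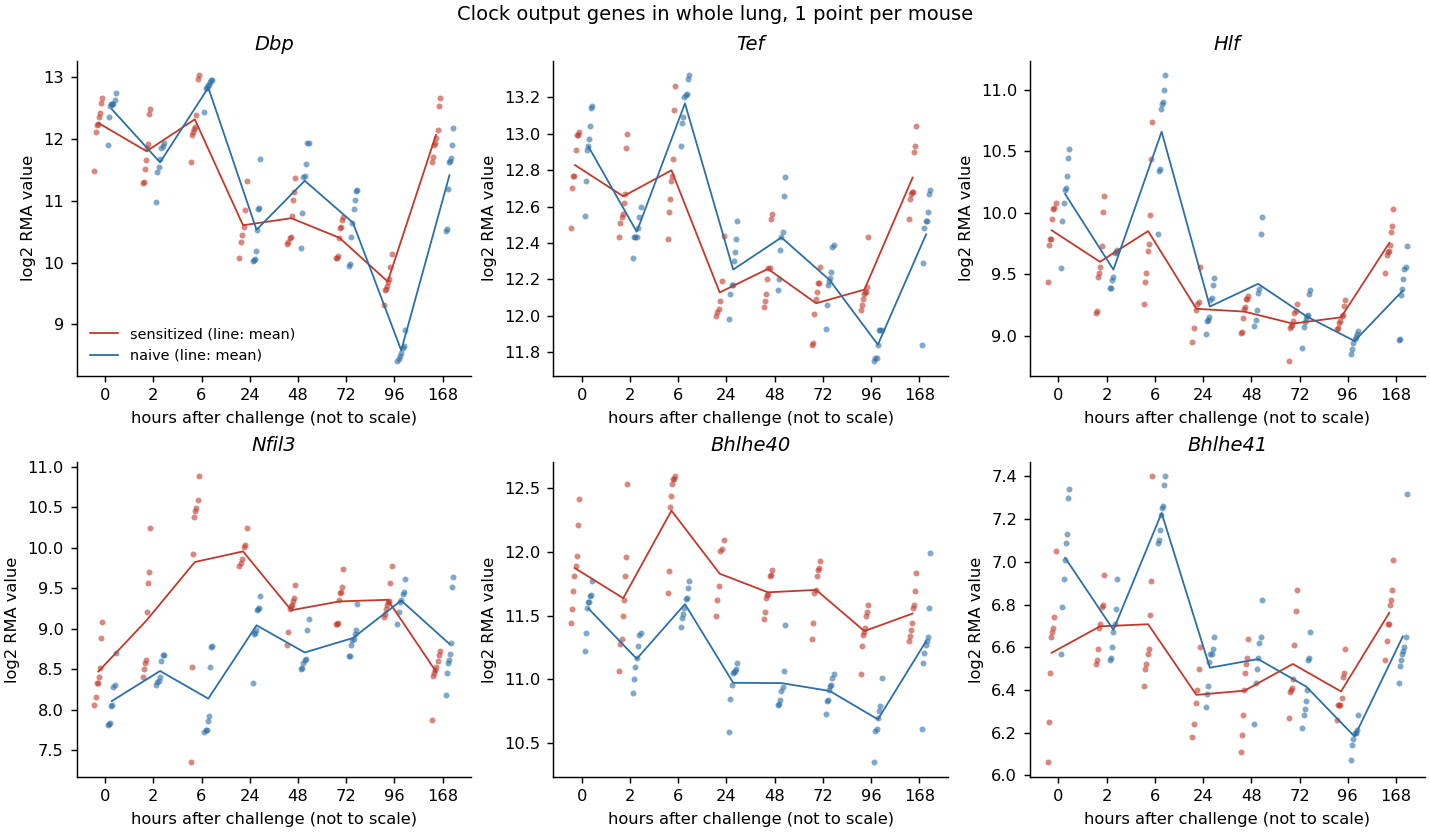
Log2 value of each clock output gene (y axis) in every mouse against hours after challenge (x axis, categories not to scale), with sensitized mice in red, left of naive mice in blue. Each point is 1 mouse, and the lines join group means of 6 to 8 mice. Dbp, Tef and Hlf share a shape with a naive minimum at 96 h, Nfil3 moves the other way in naive mice, and Bhlhe40 has the sensitized line above the naive line throughout.

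The 6 times 0, 24, 48, 72, 96 and 168 h lie whole days apart and would fall on the same clock hour if all challenges were given at the same hour. Over these 6 times alone the sensitized Dbp means still spanned 2.57 (5.94-fold) and the naive means 3.90 (15-fold). A moderated F test over the 6 times called all 6 genes in sensitized mice, where it called 70.3% of all genes, and all 6 in naive mice, where it called 32.4%. With the actin measure as a covariate it still called all 6 in naive mice but 4 of the 6 in sensitized mice, where Nfil3 (limma adjusted p = 0.0534) and Bhlhe41 (0.145) lost their calls. The sensitized F was 47.0 for Dbp, 26.4 for Tef and 13.1 for Hlf, against 11.5 for Nfil3, 4.5 for Bhlhe41 and 4.3 for Bhlhe40. The naive F was 73.7 for Dbp, 28.9 for Tef and 19.4 for Hlf, against 15.5 for Bhlhe41, 11.8 for Bhlhe40 and 6.4 for Nfil3. Neighbouring naive Dbp means in the order of levels differed by less than the larger of their SDs for 2 h and 168 h (0.21), 168 h and 48 h (0.09) and 72 h and 24 h (0.11). The 96 h mice lay below every mouse of the next group in that order, 24 h, while the 6 h and 0 h means differed by 0.35 with overlapping mice.

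Tef, a PAR bZIP factor with a shallower rhythm than Dbp in most tissues, followed a similar course with a smaller range. Its sensitized means spanned 0.76, with the lowest at 72 h (12.07) and the highest at 0 h (12.83). Its naive means spanned 1.32, with the lowest at 96 h (11.84) and the highest at 6 h (13.17), and 84 genes had a wider naive range. Hlf, the third PAR bZIP factor, had sensitized means spanning 0.76, and the lowest was again at 72 h (9.10). Its naive means spanned 1.71, with the lowest at 96 h (8.96) and the highest at 6 h (10.66), and 38 genes had a wider naive range. For both genes, neighbouring sensitized means of 24 to 96 h in the order of levels differed by at most 0.11, less than the larger of their SDs. The Tef means at these times ran from 12.07 at 72 h to 12.26 at 48 h.

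In sensitized mice at 168 h, 0 of the 6 genes passed limma's test against 0 h, where 6.13% of all genes did. The sizes at 168 h minus 0 h ran from -0.35 for Bhlhe40 to 0.19 for Bhlhe41, with SEs up to 0.23, and 1 of the 6 (Bhlhe40) had an unadjusted p below 0.05 in limma's fit. Earlier, 1 of the 6 differed from 0 h at 2 h (Nfil3, 32.2% of all genes), 2 at 6 h (Nfil3 and Bhlhe40, 53.7%), 4 at 24 h (39.6%), 4 at 48 h (3.65%), 4 at 72 h (27.5%) and 5 at 96 h (21.1%). From 24 to 96 h Dbp, Tef and Hlf were lower than at 0 h and Nfil3 was higher at each of these times. The Nfil3 calls were the weaker ones: that at 48 h held in 4 of the 16 fits that left out 1 mouse (0.70 to 0.84; lost without replicates 2 to 6 or 8 of 48 h or replicates 2 to 5, 7 or 8 of 0 h), and that at 96 h was 0.47 (adjusted p = 0.166) with the actin measure as a covariate. The Nfil3 change at 2 h (0.63 ± 0.23, adjusted p = 0.024) lost its call without sensitized 2 h replicate 3 (0.57), 5 (0.55) or 8 (0.47) or sensitized 0 h replicate 3 (0.57).

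In naive mice 2 h after challenge, 4 of the 6 genes were lower than at 0 h, where 2.91% of all genes changed and 1.44% were lower. Dbp fell by 0.86 ± 0.21 (SE; limma adjusted p = 0.0131), Tef by 0.47 ± 0.09 (0.00205), Hlf by 0.62 ± 0.14 (0.00383) and Bhlhe41 by 0.34 ± 0.10 (0.046). Another Tef probe set gave -0.59 (adjusted p = 0.00656), and a dimmer Tef set, with a mean of 7.07, gave -0.30 (0.127). Without naive replicate 6 at 2 h the Dbp change was -0.75 with an adjusted p of 0.0592, and the Bhlhe41 call held in 4 of the 15 fits that left out 1 mouse (lost without naive 2 h replicates 1, 2 or 4 to 7 or naive 0 h replicates 3 or 5 to 8). At 6 h the only call of the 6 in naive mice against 0 h was Hlf (0.51 ± 0.13, adjusted p = 0.00627; 9.2% of all genes changed), which was 0.42 (0.0568) without the 7 arrays over 8 in squamous transcripts. Against 2 h, 5 of the 6 genes (all but Nfil3) were higher at 6 h in naive mice, where 2.72% of all genes changed and 1.31% were higher. Of these, the Bhlhe40 call (0.43 ± 0.13, adjusted p = 0.0478) held in only 3 of the 15 fits that left out 1 mouse, those without naive 2 h replicates 1 or 5 or naive 6 h replicate 2, with values from 0.38 to 0.46 and adjusted p up to 0.131. It was also lost without the 6 arrays high in squamous transcripts (0.44, 0.0576). At 24, 72 and 96 h all 6 differed from 0 h in naive mice, where 20%, 9.65% and 17.3% of all genes did, with Nfil3 higher and the other 5 lower. The Nfil3 change at 24 h was 0.94 ± 0.23, and 0.59 (adjusted p = 0.108) with the actin measure as a covariate. At 48 h 5 of the 6 were lower (13.7% of all genes changed and 6.26% were lower). At 168 h Dbp (-1.07), Tef (-0.48) and Hlf (-0.79) were still below 0 h in naive mice, where 0.391% of all genes changed and 0.192% were lower.

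Nfil3, the repressor of the D-box, took a different course in each arm. In sensitized lungs its medians were 8.37, 8.92, 10.41, 9.94, 9.29, 9.40, 9.31 and 8.51 at 0, 2, 6, 24, 48, 72, 96 and 168 h. It was 1.35 ± 0.23 (SE) above its own 0 h level at 6 h (limma adjusted p = 3.21e-07) and 1.48 ± 0.24 above it at 24 h (9.67e-07).

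In naive lungs Nfil3 ran opposite to the PAR bZIP genes, with medians of 8.05, 8.40, 7.89, 9.11, 8.61, 8.86, 9.35 and 8.65 at the same times. Its naive mean was lowest at 0 h (8.11) and 6 h (8.14) and highest at 96 h (9.35), the time when Dbp, Tef and Hlf were lowest. The naive 96 h minus 0 h difference was 1.24 ± 0.23 (SE; limma adjusted p = 5.1e-05). So at 6 h the sensitized median (10.41) was the highest of that arm's 8 times and the naive median (7.89) the lowest of its own. This did not hold for every animal. Sensitized replicate 2 (8.53) lay inside the naive 6 h range of 7.73 to 8.79, and replicate 3 (7.35) lay below it. At 96 h the arms met, with 9.14 to 9.78 (median 9.31) in sensitized and 9.06 to 9.61 (median 9.35) in naive mice, a difference of 0.01 ± 0.23 (adjusted p = 0.984).

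Bhlhe40 had sensitized medians of 11.85, 11.56, 12.48, 11.87, 11.66, 11.76, 11.38 and 11.50 and naive medians of 11.61, 11.17, 11.59, 11.05, 10.91, 10.93, 10.70 and 11.29 over the 8 times. The naive means fell to 10.69 at 96 h, against 11.55 at 0 h (difference -0.87 ± 0.13 SE, limma adjusted p = 2.27e-07). Bhlhe41, the other DEC factor, was dim: the mean of its probe set was 6.61, higher than only 2.26% of probe sets, and RMA compresses differences at such levels. Its sensitized means spanned 0.38, and its naive means spanned 1.05, with the lowest at 96 h (6.18) and the highest at 6 h (7.23).

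The arms differed most across these genes at 6 h, when all 6 were called, against 57.8% of all genes. A share that high in the background means that the count of 6 by itself says little about these genes, and their sizes and directions are the description. Nfil3 had 9.92, 8.53, 7.35, 10.49, 10.59, 10.45, 10.88 and 10.38 in sensitized replicates 1 to 8, against 7.73 to 8.79 (median 7.89) in the naive mice. So 6 of 8 sensitized mice lay above every naive mouse, replicate 2 lay inside the naive range and replicate 3 below it. The difference was 1.69 ± 0.23 (SE; 3.22-fold, limma adjusted p = 4.73e-10). Leaving out sensitized replicate 3 gave 2.04, and leaving out replicate 2 gave 1.87.

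Dbp, Tef and Hlf were lower in the sensitized lungs at 6 h. Dbp had 12.39, 12.97, 13.03, 12.19, 12.16, 12.11, 11.63 and 12.07 in sensitized replicates 1 to 8, against 12.43 to 12.96 (median 12.87) in naive mice. Hlf ran from 9.26 to 10.74 (median 9.72) in sensitized mice and from 9.83 to 11.12 (median 10.87) in naive mice. Tef ran from 12.42 to 13.26 (median 12.76) in sensitized mice and from 12.93 to 13.32 (median 13.21) in naive mice. In all 3 genes sensitized replicates 2 and 3 were the highest of their group, and these are the 2 sensitized animals with the lowest Nfil3. The difference was -0.81 ± 0.13 for Hlf (limma adjusted p = 8.76e-08), -0.37 ± 0.09 for Tef (0.000357) and -0.51 ± 0.21 for Dbp (0.0266).

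Of alveolar type I and II cell markers 6 of 7 were lower at the same time (median -0.18, list means 13.15 to 13.57 in sensitized and 13.48 to 13.64 in naive mice). Of club and ciliated cell markers 3 of 6 were lower (median -0.16, list means 10.99 to 11.71 in sensitized and 11.33 to 11.67 in naive mice). Of endothelial and smooth muscle markers 3 of 8 were lower and 1 higher (median -0.14, list means 11.53 to 11.95 in sensitized and 11.69 to 12.13 in naive mice). Of all genes 33.2% were lower at 6 h, with a median of -0.04. The endothelial and smooth muscle count lies near that share and the skeletal muscle count below it, so these counts say little by themselves. The part of these cell types in the Dbp, Tef and Hlf differences was not tested.

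The Dbp difference at 6 h was the least certain of these. It was -0.42 with an adjusted p of 0.0901 without sensitized replicate 7, which is also an array with squamous transcripts, and -0.42 with an adjusted p of 0.102 without the 6 arrays high in squamous transcripts. RNA quality moved with the arms: the actin measure averaged 1.05 ± 0.14 in sensitized and 1.23 ± 0.05 in naive mice at 6 h (SD, n = 8 each). With that measure as a covariate the Dbp difference was -0.31 (adjusted p = 0.193), while the other 5 genes kept their calls. Dbp's second probe set gave -0.61 ± 0.22 (adjusted p = 0.0119).

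**Figure D2:**
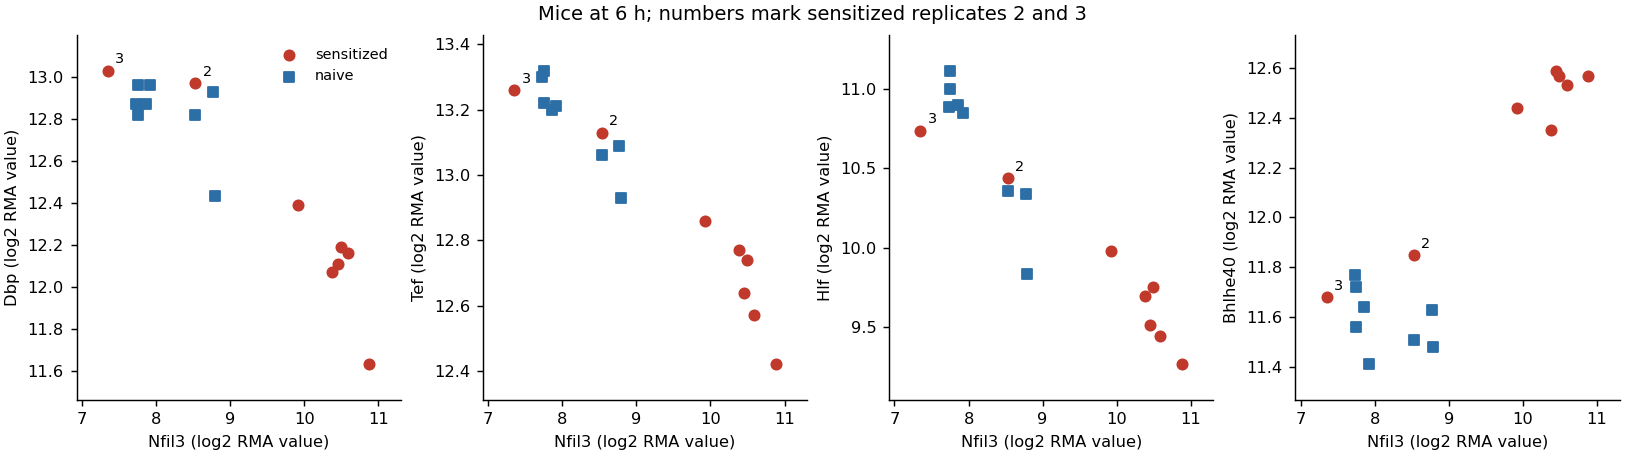
Log2 values of Dbp, Tef, Hlf and Bhlhe40 (y axes) against Nfil3 (x axis) in the 8 sensitized mice (red circles) and 8 naive mice (blue squares) at 6 h, 1 point per mouse. Sensitized replicates 2 (Nfil3 8.53) and 3 (Nfil3 7.35), marked by number, have the highest Dbp, Tef and Hlf and the lowest Bhlhe40 of the sensitized mice, and the 6 other sensitized mice lie at Nfil3 values of 9.92 and above.

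The DEC genes differed between the arms in opposite directions at 6 h, as they already did at 0 h. Neither passed for a change of that difference from 0 h to 6 h. Bhlhe40 had 11.68 to 12.59 (median 12.48) in sensitized mice, against 11.41 to 11.77 (median 11.59) in naive mice, and the difference was 0.73 ± 0.12 (SE; limma adjusted p = 3.28e-07). Bhlhe41 had 6.42 to 7.40 (median 6.58) in sensitized mice, against 7.09 to 7.40 (median 7.24) in naive mice, and the difference was -0.52 ± 0.10 (adjusted p = 2.67e-06). Sensitized replicate 3 held the lowest Bhlhe40 and the highest Bhlhe41 of its group.

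The change of the 6 h level against the mean of the 6 whole-day times was compared between the arms. It was smaller in sensitized than in naive mice for Hlf (difference -0.81 ± 0.14 SE, limma adjusted p = 1.99e-06), Tef (-0.38 ± 0.10, 0.0011), Bhlhe41 (-0.47 ± 0.11, 0.000146) and Dbp (-0.64 ± 0.22, 0.0153), and larger for Nfil3 (1.37 ± 0.25, 3.34e-06), so 5 of the 6 passed, against 42.3% of all genes. Bhlhe40 did not (0.14 ± 0.14, adjusted p = 0.436). For Tef, another probe set gave -0.48 (0.00447) and the dimmer set gave -0.20 (0.179). At 6 h the Hlf level stood above its mean over the whole-day times by 0.47 in sensitized and by 1.28 in naive mice. Within each arm this 6 h offset passed for all 6 genes, against 60.2% of all genes in sensitized and 12.2% in naive mice. Of the 6 genes, Nfil3 alone was offset in opposite directions, by 0.69 ± 0.17 in sensitized and -0.68 ± 0.17 in naive mice. Without sensitized replicate 7 at 6 h the Dbp value was -0.54 with an adjusted p of 0.052. Against the 2 h level, 4 of the 6 genes passed for the arms' difference in change at 6 h (Nfil3, Hlf, Tef and Bhlhe41, 32.2% of all genes), while 3 of 6 changed in sensitized mice (50.9%). Against 0 h, 2 of the 6 genes passed for the change of the arm difference at 6 h (Nfil3 1.32 ± 0.32 and Hlf -0.52 ± 0.18), where 24.6% of all genes did. That Hlf call was lost without naive 6 h replicates 5, 6, 7 or 8, naive 0 h replicate 3, sensitized 6 h replicates 5, 6 or 7, or sensitized 0 h replicate 2 (adjusted p up to 0.0892). Hlf's second probe set gave -0.63 (adjusted p = 0.0695). The Hlf value was -0.38 (adjusted p = 0.175) without the arrays high in squamous transcripts.

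**Figure D3:**
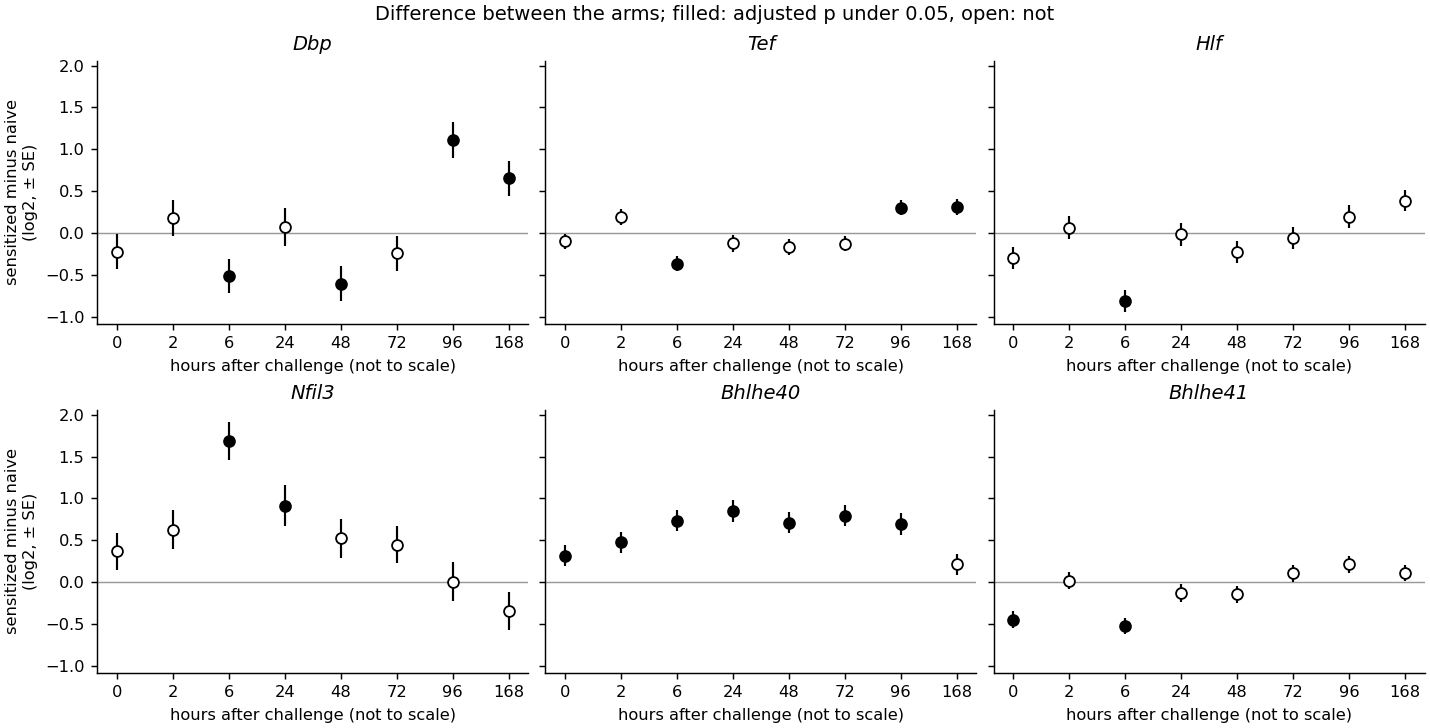
Sensitized minus naive difference of each gene (y axis, log2, bars are the SE of the limma fit) against hours after challenge (x axis, not to scale). Filled points have an adjusted p below 0.05. Nfil3 peaks at 1.69 at 6 h, Bhlhe40 stays between 0.48 and 0.85 from 2 to 96 h, and Dbp runs from -0.61 at 48 h to 1.11 at 96 h.

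At 0 h and 2 h few of the 6 genes differed between the arms, although Clca1 and Il13 already stood apart at 0 h, as given above. At 0 h 2 of the 6 were called, against 26.5% of all genes. Bhlhe41 had 6.06 to 7.05 (median 6.66) in sensitized and 6.57 to 7.34 (median 7.05) in naive mice, a difference of -0.45 ± 0.10 (SE; limma adjusted p = 0.000343). Bhlhe40 differed by 0.32 ± 0.12 (adjusted p = 0.0486), a call that held in 7 of the 16 fits that left out 1 mouse, with values from 0.24 to 0.38. It was lost without naive replicates 1, 2, 3, 5 or 6 or sensitized replicates 1, 5, 6 or 8. At 2 h Bhlhe40 was the single call (0.48 ± 0.13, adjusted p = 0.02), against 3.76% of all genes. Its call at 2 h was lost without naive replicate 6 (0.43, adjusted p = 0.0622), sensitized replicate 5 (0.43, 0.0605) or sensitized replicate 8 (0.35, 0.135), and when the 2 groups were fitted alone (adjusted p = 0.153). The sensitized mice at 2 h were spread widely in Nfil3, from 8.41 to 10.24 with an SD of 0.68, against 8.30 to 8.68 with an SD of 0.16 in naive mice. Sensitized replicates 2, 6 and 7, those with naive-like Il4, had Nfil3 values of 8.62, 8.58 and 8.41.

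At 24 h Nfil3 and Bhlhe40 were called, both higher, 2 of 6 genes against 47.7% of all in either direction and 22.8% higher. Nfil3 ran from 9.78 to 10.24 in the 6 sensitized mice, against 8.33 to 9.41 in the 8 naive mice, and the groups did not overlap (difference 0.91 ± 0.24 SE, limma adjusted p = 0.00117). Bhlhe40 ran from 11.50 to 12.09 in sensitized mice, against 10.59 to 11.13 in naive mice, again without overlap (0.85 ± 0.14, adjusted p = 9.82e-08). The share of all genes whose arms did not overlap was not counted at this or any other time. Separation of the arms is therefore not shown to be particular to these genes. The PAR bZIP genes did not pass at 24 h: the differences were 0.07 ± 0.22 for Dbp, -0.12 ± 0.10 for Tef and -0.02 ± 0.14 for Hlf. So the 24 h mice combined a raised Nfil3 with Dbp values of 10.08 to 11.32 in sensitized and 10.02 to 11.68 in naive mice.

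Bhlhe40 was the only gene of the 6 called at each time from 0 to 96 h. At 48 h it had 11.47 to 11.86 in sensitized mice, against 10.80 to 11.43 in naive mice (0.71 ± 0.13 SE, limma adjusted p = 5.98e-06). At 72 h it had 11.32 to 11.93 in sensitized mice, against 10.73 to 11.04 in naive mice (0.79 ± 0.12, 8.58e-08). At 96 h it had 11.04 to 11.58 in sensitized mice, against 10.35 to 11.01 in naive mice (0.69 ± 0.13, 7.68e-06). At 24, 48, 72 and 96 h every sensitized mouse thus lay above every naive mouse, and how many of all genes did likewise was not counted. At 168 h the difference was 0.22 ± 0.12 and did not pass (adjusted p = 0.339). Since the change of the difference from 0 h did not pass for Bhlhe40 at any of the 7 later times (0.54 ± 0.18 at 24 h, adjusted p = 0.0639), the later offset is not shown to exceed the one at 0 h. At 24 h and 48 h none of the 6 genes passed that test in limma (5.49% and 0% of all genes), and 2 of the 6 had an unadjusted p below 0.05 at each of these times.

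At 48 h 2 of the 6 genes were called (35.1% of all genes), Bhlhe40 and Dbp. Dbp had 10.30 to 11.37 (median 10.59) in sensitized and 10.23 to 11.94 (median 11.40) in naive mice. The difference was -0.61 ± 0.21 (SE; limma adjusted p = 0.0203), and it was -0.50 without naive replicate 6 (0.0701) or naive replicate 7 (0.068). At 72 h Bhlhe40 was the single call, against 48.5% of all genes. For Tef, whose used probe set did not pass at either time, another probe set gave -0.42 ± 0.13 at 48 h (adjusted p = 0.0109) and -0.34 ± 0.13 at 72 h (0.0231). The dimmer Tef set gave -0.27 (0.0557) at 48 h and -0.10 (0.466) at 72 h.

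At 96 h the PAR bZIP genes stood the other way round, higher in sensitized lungs. There 3 of the 6 genes were called (Dbp, Tef and Bhlhe40, all higher), against 42% of all genes in either direction and 21.2% higher. Dbp ran from 9.31 to 10.14 (median 9.65) in sensitized mice and from 8.40 to 8.90 (median 8.54) in naive mice, with no overlap. The difference was 1.11 ± 0.21 (SE; 2.16-fold, limma adjusted p = 1.28e-05), and it lay between 1.05 and 1.17 whichever mouse was left out. It exceeded the arm difference at 0 h by 1.33 ± 0.30 (adjusted p = 0.00397), a test that 2 of the 6 genes (Dbp and Bhlhe41) and 3.12% of all genes passed at 96 h. Dbp's second probe set gave 0.78 ± 0.22 (adjusted p = 0.0032).

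Tef had 12.03 to 12.43 in sensitized mice at 96 h, against 11.75 to 11.92 in naive mice, and Hlf had 9.05 to 9.29 in sensitized mice, against 8.85 to 9.04 in naive mice. Neither gene's arms overlapped, as for Dbp, and the share of all genes without overlap was not counted. The Tef difference was 0.31 ± 0.10 (SE; limma adjusted p = 0.00636), but the other Tef probe sets gave 0.25 (adjusted p = 0.128) and 0.04 (0.795). The Hlf difference was 0.20 ± 0.13 and did not pass (adjusted p = 0.244) with the spread shared over the 16 groups, but Hlf's second probe set gave 0.45 ± 0.19 and passed (0.0469). When the 2 groups were fitted alone, whose SDs were 0.08 in sensitized and 0.07 in naive mice, the adjusted p of the first probe set was 0.0022.

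At 168 h 2 of the 6 genes were called, Dbp and Tef, both higher in sensitized mice, against 4.81% of all genes in either direction and 3.4% higher. Dbp had 11.63 to 12.66 (median 11.98) in sensitized and 10.51 to 12.18 (median 11.64) in naive mice (0.65 ± 0.21 SE, limma adjusted p = 0.0436). Tef had 12.53 to 13.04 (median 12.68) in sensitized and 11.84 to 12.69 (median 12.52) in naive mice (0.31 ± 0.09, 0.0294). Both calls were weak, and no other probe set passed: Dbp's second gave 0.63 (adjusted p = 0.0737), and the other Tef sets gave 0.37 (0.0868) and 0.07 (0.789). The Dbp call was lost without naive replicates 1 (0.53), 4 (0.53) or 8 (0.62), or without sensitized replicates 1 (0.66), 4 (0.59), 5 (0.64) or 6 (0.57). The Tef call was lost without naive replicates 1 (0.29) or 4 (0.22), or without sensitized replicates 1 (0.29), 4 (0.27) or 6 (0.28). The actin measure was 1.50 ± 0.17 in sensitized and 1.21 ± 0.23 in naive mice (SD, n = 8 each), and with it as a covariate the differences were 0.33 for Dbp (adjusted p = 0.509) and 0.15 for Tef (0.482).

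The Bhlhe41 difference between the arms moved with time. It stood 0.46 ± 0.14 (SE) above that at 0 h by 2 h (limma adjusted p = 0.0313), 1 of 6 genes where 6.69% of all genes changed. The value was 0.55 ± 0.14 at 72 h (0.0126), again 1 of 6 genes against 2.54% of all, and 0.66 ± 0.14 at 96 h (0.00214). At 168 h it was 0.56 ± 0.14 (0.0203), and Hlf passed too (0.68 ± 0.18, 0.0313), which made 2 of 6 genes against 1.94% of all. These tests share the mice of 0 h. The 2 h call held in 24 of the 31 fits that left out 1 mouse (values 0.39 to 0.53). It was lost without sensitized replicates 2 or 4 or naive replicate 7 of 2 h, or sensitized replicates 1 or 6 or naive replicates 6 or 7 of 0 h. The Hlf call held in 23 of 32 such fits (0.62 to 0.77). It was lost without sensitized replicate 1 or naive replicates 1 or 4 of 168 h, or sensitized replicates 1 or 6 or naive replicates 5 to 8 of 0 h. Hlf's second probe set gave 0.71 at 168 h (adjusted p = 0.119). The Bhlhe41 call at 168 h was lost without sensitized 0 h replicates 1 (adjusted p = 0.0642) or 6 (0.0654).

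Across all 8 times, moderated F tests for a different time course in the arms called all 6 genes, against 62.5% of all genes. The F was 7.8 for Dbp, 7.6 for Hlf, 7.4 for Bhlhe41, 7.1 for Tef, 7.0 for Nfil3 and 3.4 for Bhlhe40 (limma adjusted p from 1.74e-06 for Dbp to 0.00593 for Bhlhe40). Over the 6 whole-day times the same test again called all 6 genes, against 29.2% of all genes, with F from 3.5 for Nfil3 to 9.1 for Dbp. With the actin measure as a covariate this test called 4 of the 6, and Hlf (adjusted p = 0.0562) and Nfil3 (0.203) lost their calls. The Nfil3 call was also lost without naive 168 h replicates 4 (0.0603) or 8 (0.0524) or sensitized 168 h replicate 4 (0.0528). Hlf's second probe set did not pass over the 6 times (0.0638), and 1 other Tef probe set passed neither over the 6 times (0.422) nor over all 8 (0.11). The simple time effect over 8 times passed for all 6 in sensitized mice (87.8% of all genes) and in naive mice (38.4%).

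Of the 12 core clock genes listed 11 were measured. From 0 to 96 h in naive mice 9 of the 11 changed, 3 up and 6 down, where 17.3% of all genes changed, with a list median of -0.57, against -0.01 over all genes. Npas2 and Arntl, the partners in the clock's activator, rose by 2.71 ± 0.19 and 1.75 ± 0.15 (SE). Nr1d1, which encodes a repressor of Arntl, changed by -2.17 ± 0.16. Per2 changed by -2.14 ± 0.22 and Per3 by -2.08 ± 0.15, and both belong to the Per family that encodes repressors of the activator. These changes stood at the same time as the minimum of Dbp, Tef, Hlf and both DEC genes and the maximum of Nfil3.

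Between the arms, 8 of the 11 core clock genes differed at 6 h, where 57.8% of all genes did, with a list median of -0.36, against -0.04 over all genes. The counts at 6 h and at 96 h lie near the shares of all genes called and say little about this list by themselves. Higher in sensitized lungs were Npas2 (0.64 ± 0.19 SE) and Arntl (0.51 ± 0.15). Lower were Per3 (-0.67 ± 0.15), Per2 (-0.60 ± 0.21), Nr1d1 (-0.48 ± 0.16), Cry2 (-0.46 ± 0.08), Rora (-0.43 ± 0.09) and Nr1d2 (-0.29 ± 0.12). Arntl had 7.85 to 8.89 (median 8.43) in sensitized mice and 7.35 to 9.03 (median 7.78) in naive mice, so the arms overlapped. At 96 h 5 of the 11 differed, where 42% of all genes did: Per2 (0.63 ± 0.22), Nr1d1 (0.41 ± 0.16) and Per3 (0.37 ± 0.15) were higher in sensitized lungs, and Clock (-0.38 ± 0.09) and Rora (-0.33 ± 0.09) lower. At 24 h 4 of the 11 were lower (median -0.39), where 24.9% of all genes were lower, and at 72 h 6 were lower (median -0.31), where 26.3% were. The probe sets used for Dbp, Tef and Hlf did not pass at these times, although another Tef probe set did at 72 h, as given above. At 24 h the lower genes were Nr1d1 (-0.62 ± 0.17), Arntl (-0.48 ± 0.16), Cry2 (-0.41 ± 0.09) and Rora (-0.40 ± 0.09).

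**Figure D4:**
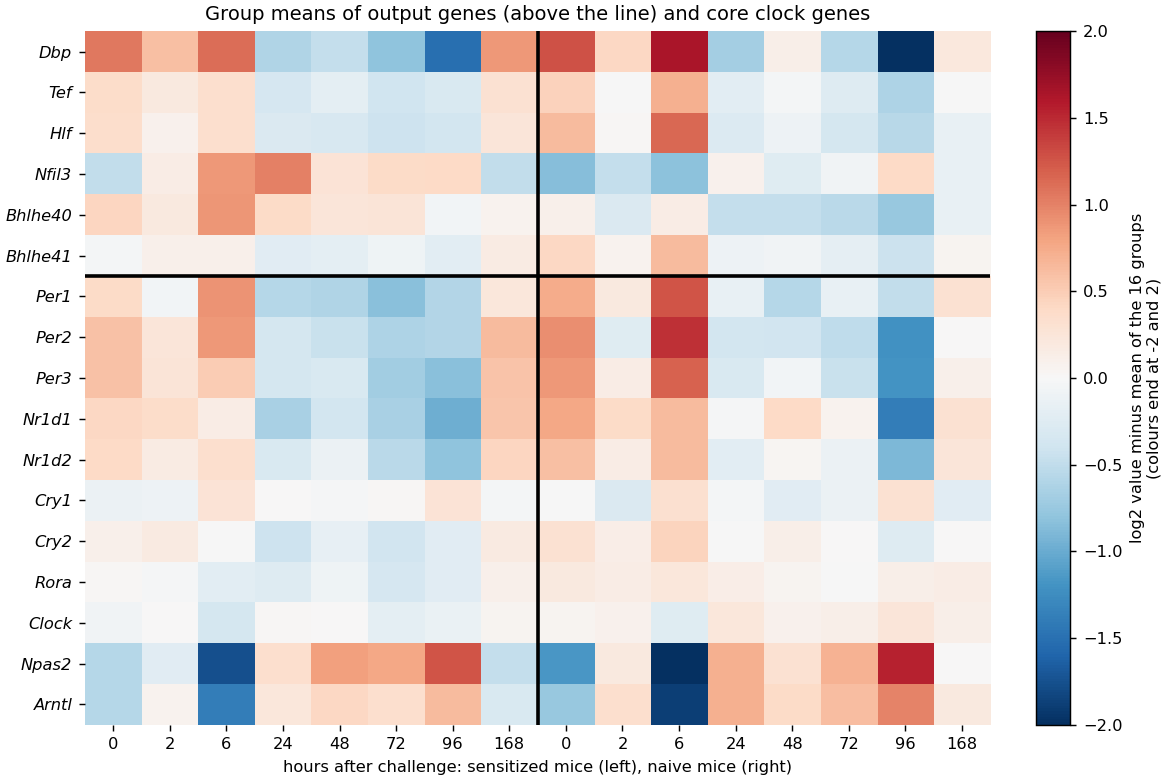
Group means of the 6 output genes (above the horizontal line) and 11 core clock genes (rows) at 8 times (columns, hours after challenge) in sensitized mice (left block) and naive mice (right block). Colour is the log2 value minus the mean of the 16 groups. Naive 96 h is the darkest blue column for Dbp and for Per2, Per3 and Nr1d1 and the darkest red for Npas2 and Arntl, and Dbp spans 2.63 over the sensitized columns and 4.25 over the naive columns.

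Of genes known as PAR bZIP targets in liver, kidney and brain, 3 of 8 were measured, and all 3 differed between the arms at 6 h, where 57.8% of all genes did. Cyp2b10, a drug-metabolizing enzyme, had a difference of -0.50 ± 0.09 (SE), Alas1, the first enzyme of haem synthesis, -0.57 ± 0.10 and Pdxk, which makes the active form of vitamin B6, 0.19 ± 0.07. In naive mice from 0 to 96 h Alas1 fell by 0.67 ± 0.10 and the other 2 did not pass. Of 9 further genes that are rhythmic in many tissues 8 were measured, and 6 differed at 6 h, 2 higher and 4 lower (list median -0.36), against the same 57.8%. Usp2 (-0.60 ± 0.13), Lonrf3 (-0.55 ± 0.07) and Wee1 (-0.51 ± 0.10) were the largest decreases, and Nampt (0.50 ± 0.09) was the largest increase. Of 9 measured glucocorticoid-induced genes, which carry another daily signal, 4 differed at 6 h, a smaller share than the 57.8% of all genes, with Mt2 (1.76 ± 0.23) and Mt1 (0.85 ± 0.13) higher and Zbtb16 (-1.70 ± 0.36) and Klf9 (-0.34 ± 0.07) lower.

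Genes of T cell activation and type 2 cytokines were higher in sensitized lungs at 6 h and 24 h, as Nfil3 and Bhlhe40 were. All 9 were measured and 8 were higher in sensitized lungs at 6 h (median 2.61), where 24.6% of all genes were higher, among them Il4 (3.76 ± 0.37 SE), Il13 (3.09 ± 0.32), Il5 (2.81 ± 0.29) and Il2ra (2.78 ± 0.24). Their mean ran from 7.28 to 10.47 in sensitized mice and from 6.98 to 7.42 in naive mice. At 24 h 8 of 9 were higher (median 1.40; 22.8% of all genes), and their mean ran from 8.38 to 8.82 in sensitized and from 7.09 to 7.42 in naive mice. Nfil3 did not follow this list at every time. At 0 h the list mean ran from 7.41 to 8.56 in sensitized and from 7.05 to 7.38 in naive mice. At 96 h it ran from 7.47 to 8.12 in sensitized and from 7.19 to 7.37 in naive mice. Nfil3 was not called between the arms at 0 h or 96 h. Markers of several immune cell types were also higher at 6 h, against the same 24.6% of all genes. Of natural killer cell markers 6 of 7 were higher at 6 h (median 0.89, list means 9.29 to 10.15 in sensitized and 8.84 to 9.26 in naive mice). Of T cell markers 6 of 6 were higher (median 0.62, list means 9.15 to 10.06 in sensitized and 8.64 to 9.37 in naive mice). Of conventional dendritic cell markers 4 of 6 were higher at 6 h (list means 9.10 to 10.35 in sensitized and 8.85 to 9.20 in naive mice), led by Batf3 (2.44 ± 0.22). Of alveolar macrophage markers 5 of 10 were higher and 1 lower (list means 10.59 to 11.01 in sensitized and 10.36 to 10.91 in naive mice). Of B cell markers 3 of 4 were higher (list means 10.74 to 11.41 in sensitized and 10.25 to 10.97 in naive mice). Of neutrophil markers 1 of 5 was higher, no larger a share than over all genes. Their list means ran from 10.19 to 11.94 in sensitized mice and, more widely spread, from 9.79 to 12.71 in naive mice. The part of these markers and cytokine genes in the Nfil3 and Bhlhe40 differences was not tested.

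The genes with the most similar profile over all arrays were taken by Pearson's r, as a description across arrays that share 16 groups. For Dbp these were Sphk2 (r = 0.99), Per3 (0.94) and Tef (0.93), and the most opposite were Npas2 (-0.89), Rasl11a (-0.84) and Spaar (-0.83). Sphk2 lies next to Dbp on chromosome 7, and the gene bodies overlap by 741 bases in RefSeq, so signals of the pair may not be separable on these arrays. For Tef they were Sphk2 (0.95), Per3 (0.94) and Dbp (0.93), and for Hlf they were Tef (0.92), Per3 (0.91) and Per2 (0.89). For Nfil3 they were Glipr2 (0.91), Arsi (0.84) and Relb (0.82). For Bhlhe40 they were Rtn4rl2 (0.88), Spsb1 (0.87) and Sod2 (0.86), and for Bhlhe41 Per3 (0.78), Hlf (0.78) and Cipc (0.74).

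Mice of the same group also varied together. Deviations from the group mean were related for 51 gene pairs in each arm, the 15 pairs among the 6 genes and the 36 pairs of 1 of them with Arntl, Npas2, Per3, Il4, Il13 or Fkbp5, 102 relations in all. These 6 further genes were chosen with results of these data known. Permutation tests shuffled mice within groups 100000 times, two-sided, and p-values were adjusted over the 102, of which 69 passed for r. The smallest p that these permutations can give is 1e-05. The pairs described next were picked after their values were seen. Dbp and Tef deviated together with r = 0.85 in the 62 sensitized mice (rho 0.80) and r = 0.82 in the 61 naive mice (rho 0.79). Nfil3 deviated against Hlf with r = -0.76 in sensitized mice (rho -0.52) and r = -0.62 in naive mice (rho -0.58). It deviated against Dbp with r = -0.66 in sensitized mice (rho -0.66) and -0.55 in naive mice (rho -0.48). Without the 2 mice farthest from the median of the first gene named, these r were 0.83 and 0.82, -0.62 and -0.63, and -0.64 and -0.50 in sensitized and naive mice. Without the 6 h mice they were 0.82 and 0.84, -0.50 and -0.48, and -0.62 and -0.60. Nfil3 and Hlf then had rho -0.36 in sensitized and -0.44 in naive mice. With all mice the adjusted permutation p was at most 0.000166 for r and 0.000793 for rho in these 6 relations.

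In sensitized mice Nfil3 also deviated with the cytokine gene Il13 (r = 0.86, rho 0.72, adjusted permutation p = 2.83e-05 for r and 3.4e-05 for rho). Without the 2 farthest mice r was 0.80, and without the 6 h mice it was 0.76. Bhlhe40 and Il13 had r = 0.83 there (rho 0.71, with the same adjusted p-values), and 0.77 without the 2 farthest mice. In naive mice Il13 lay between 5.98 and 6.66 in all but 1 of the 61 animals, which had 6.99, and 1.81% of genes had a lower naive mean, so its relation to Nfil3 or Bhlhe40 could not be measured there. Sensitized replicate 3 at 6 h (6.30) and replicates 2, 6 and 7 at 2 h (6.62, 6.31 and 6.54) had naive-like Il13. The relations in sensitized mice may contrast these mice with the rest of their groups. No r was computed without them, and the r without 6 h keeps the 2 h mice.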

How the data were processed

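RNA of 62 sensitized and 61 naive whole lungs was measured on Affymetrix 3' arrays. The deposited values are log2 expression values of 25697 probe sets, which the authors made by RMA (background correction, quantile normalization and probe summary), per the submitters' processing notes, which give no version used here. Gene names came from the platform annotation: 22478 probe sets had 1 symbol, 259 several and 2950 none. For each gene the probe set of highest mean was kept, which left 13053 genes with no filter on low values.

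Differences were fitted in limma 3.58.1 (R 4.3.3) with 1 mean for each of the 16 groups of arm and time and 107 residual degrees of freedom. Empirical Bayes p-values were adjusted by Benjamini-Hochberg over the 13053 genes of each comparison, and 0.05 was the threshold. Labels name each mouse as a separate sample, and replicate numbers follow accession order and only name a mouse. Values of no 2 replicates were identical. The number of arrays limits the precision. Groups were set by the labels. The fit was tested on simulated data. Correlations and permutation tests used Python 3.11.15, numpy 2.4.6, pandas 2.3.3 and scipy 1.17.1, and plots matplotlib 3.10.9. Promoter windows are RefSeq's.

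Genes named in the text are the 6 genes themselves, the measured members of the lists and, for each of the 6, the 3 genes with the highest Pearson correlation over all arrays (for Dbp also the 3 lowest). Clca1 and Il6 were named in addition, with their values known. The genes and lists were chosen with earlier results of these data known. Alternatives were another probe set rule, the mean of a gene's probe sets, renormalization, median centring, array weights, the actin covariate, dropping squamous arrays, a filter on low means, all probe sets as the background, a trend and robust fit, fitting only the groups compared, and leaving out each mouse. The sets without squamous arrays over 8 and with all probe sets were chosen after seeing the data.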

Additional observations from a re-analysis of the deposited data

Results flagged for a closer look

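Of 96 groups of mice (6 genes by 16 groups), 10 held a mouse that stood apart from the others of its group by Dixon's test, and chance alone picks about 1 in 20 groups. For Dbp these were sensitized replicate 1 at 0 h (11.48), naive replicate 3 at 0 h (11.91, an array high in squamous transcripts) and naive replicate 4 at 6 h (12.43), each the lowest of its group. For Tef they were sensitized replicate 5 at 96 h (12.43, the highest) and naive replicate 4 at 168 h (11.84, the lowest). For Hlf it was sensitized replicate 5 at 72 h (8.79, the lowest). For Nfil3 they were sensitized replicate 4 at 168 h (7.87) and naive replicate 2 at 24 h (8.33), both the lowest. For Bhlhe40 it was naive replicate 7 at 48 h (11.43, the highest), and for Bhlhe41 naive replicate 4 at 168 h (7.32, the highest). The naive mouse with replicate number 4 at 168 h thus stood apart in both Tef and Bhlhe41, and it also had 9.64 for Nfil3 and 11.99 for Bhlhe40. That mouse had 8.28 for the cytokine gene Il6. Naive replicate 8 at 168 h had 9.83 for Il6 and 9.52 for Nfil3. The other naive mice at 168 h had Il6 values of 5.41 to 7.29.

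The arms' difference changed over time, by limma's test of the change itself, for several genes. Against the difference at 0 h, the sensitized minus naive difference had grown by 1.32 for Nfil3 at 6 h and by 1.33 for Dbp at 96 h. It had moved by -0.52 for Hlf at 6 h and by 0.68 at 168 h. For Bhlhe41, which was lower in sensitized mice at 0 h, the movement was 0.46 by 2 h. It came to 0.55 by 72 h, to 0.66 by 96 h and to 0.56 by 168 h. This test was passed by 6.69% of all genes for 2 h and 24.6% for 6 h, then 2.54% for 72 h, 3.12% for 96 h and 1.94% for 168 h. The calls that rest on single mice are named with their values in the results above.

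For the 6 h level against the mean of the whole-day times, the change differed between the arms by 1.37 for Nfil3, -0.81 for Hlf, -0.64 for Dbp, -0.47 for Bhlhe41 and -0.38 for Tef. For the 6 h level against the 2 h level it differed by 1.06 for Nfil3, -0.87 for Hlf, -0.56 for Tef and -0.54 for Bhlhe41, 4 of the 6 genes against 32.2% of all genes.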

How the results depend on the processing

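Of the 48 differences between the arms (6 genes at 8 times), 19 were called, and 17 to 24 were under the alternatives. Leaving out 1 mouse gave 17 to 23. Of the changes of the difference since 0 h 8 were called, against 5 after quantile normalization, 22 with array weights, 5 with only the groups compared and 6 to 11 without 1 mouse. Counts without 1 mouse were 29 to 33 for naive mice against 0 h (31 called), 19 to 23 for sensitized mice against 0 h (20 called) and 32 to 34 for 2 and 6 h against the whole-day times and each other (33 called). By time, 2 calls at 0 h became 1 with median centring, 1 with all probe sets, 1 with only the groups compared and 1 to 2 without 1 mouse. The 1 call at 2 h became 2 with array weights, 0 with only the groups compared and 0 to 1 without 1 mouse. The 6 calls at 6 h became 5 to 6 without 1 mouse, and at 24 h there were 2 in each such fit. The 2 calls at 48 h became 5 with array weights and 1 to 2 without 1 mouse. The 1 call at 72 h became 2 with the probe set of largest SD, 3 with array weights, 2 with only the groups compared and 1 in each fit without 1 mouse. The 3 calls at 96 h became 5 with only the groups compared and stayed 3 in each fit without 1 mouse. The 2 calls at 168 h became 1 with the probe set of largest SD, 0 with the mean of probe sets, 1 with array weights, 0 with the actin covariate, 0 with only the groups compared and 0 to 3 without 1 mouse. The causes were not tested, except that fitting fewer groups leaves fewer mice for the spread. The F tests over time called all 6 genes in each fit without 1 mouse, except that the interaction over the whole-day times gave 5 to 6; with the actin covariate sensitized mice and the interaction over the whole-day times gave 4 each. Of 8898 values of single genes without 1 mouse, 8659 kept direction and call. No result past the threshold changed sign. No paired analysis was possible because replicate numbers follow accession order and pair no mice. RMA compresses dim signals, which limits Bhlhe41, and the hour of sampling is unknown, so that time courses here cannot be read as daily rhythms.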
